A study of Homo sapiens with 12 samples.

Results

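Caveolae are small flask-shaped pits of the plasma membrane, and 4 genes of their coat are described here across 3 groups of WM1366 melanoma libraries. The genes are SDPR (now CAVIN2, cavin-2), PTRF (now CAVIN1, cavin-1), CAV1 (caveolin-1) and CAV2 (caveolin-2). They were taken by symbol from the 12931 gene rows of each file, and all 4 were present. SDPR was chosen by its measured values, the near loss of its transcript in the group named R1, and the other members because they build the same coat. Values of SDPR that involve R1 are therefore given as a description, with no test.

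WM1366 is a cell line from a human skin melanoma with mutant NRAS. The 12 RNA sequencing libraries form 3 groups of 4, and each group is labelled by the diet of its xenograft tumours. The control group had a control diet, and R1 and R2 had a diet with a MEK inhibitor and a CDK4/6 inhibitor and were taken from tumours that progressed. What makes R1 and R2 different groups is not given. The treatment text of the labels names palbociclib (a CDK4/6 inhibitor, 0.1 uM) and PD0325901 (a MEK inhibitor, 1 nM) for every sample, control included, and describes cells in culture medium. All groups are thus 1 cell line, and nothing says that replicates came from separate tumours or cultures, so that p-values measure only the spread between these samples, which may be technical. Of 9 melanocyte markers, MITF and PMEL were measured and SOX10, MLANA, TYR, TYRP1, DCT, S100B and S100A1 were not. Here and below, measured means listed among the 12931 gene rows of each file. A gene called not measured has no row, which does not show that its RNA was absent or was not sequenced.

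Caveolins are hairpin proteins that insert into the inner leaflet of the membrane and oligomerise. CAV1 is needed for caveolae in most non-muscle cells, and CAV2 joins it in mixed oligomers. Cavins are cytosolic proteins that assemble on the caveolin scaffold and bend the membrane. Cavin-1 is the essential subunit that forms complexes with the others, while cavin-2 binds phosphatidylserine and was first known as a serum deprivation response protein. In many cells caveolae buffer membrane tension and hold signalling proteins.

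Depth ranged from 20003891 to 39009384 reads in the listed genes per library, and the value of 3 reads ranged from 0.0728 to 0.158. Values below are normalised read counts, and a group is given by its mean ± SD over 4 libraries. Differences are log2 fold changes of value + 0.5. The verbs rose and fell are kept for an adjusted p under 0.05 (limma, Benjamini-Hochberg over all 12931 genes). Transcripts of the mitochondrial genome took 1.99% to 3.12% of reads in R1, 3.86% to 9.19% in R2 and 5.59% to 10.3% in control. The 2 comparisons with control share the control libraries.

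SDPR, the member chosen for its near loss in R1, is described first. In control it was at 52.7, 52.8, 49.2 and 48.5 in replicates 1 to 4. In R2 it was at 29.7, 20.9, 15.0 and 15.0. In R1 it was at 0.0728, 0.0878, 0.114 and 0.0309, which is 3, 2, 3 and 1 reads. The 3 groups did not overlap, which for R1 goes with the choice of the gene. Each R1 library was at or under the value of 3 reads. The group levels were 50.8 ± 2.24 in control, 20.2 ± 6.94 in R2 and 0.0763 ± 0.0347 in R1.

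SDPR was chosen on R1 against control, and R2 against control uses the same control libraries with R2 libraries that the choice did not rest on. Such a choice favours genes with high control values, and the fit shares its spread with R1. The p-value below is therefore not fully independent of the choice. In that comparison SDPR fell to 39.7% of the control mean (log2 fold change -1.37, SE 0.18, adjusted p = 7.8e-05). It was the only one of the 4 members that passed the test there, where 28.4% of all genes passed (13.6% rose and 14.8% fell). Of all genes, 2.69% had a lower log2 fold change in this comparison. Leaving out any 1 of the 12 libraries kept the call, with log2 fold changes from -1.57 to -1.25. R2 replicate 1 was the highest R2 library and replicates 3 and 4 were the lowest.

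In R1 the 4 libraries together held 9 SDPR reads, against 4539 in control and 2278 in R2. From pooled reads the level in control was 696-fold that in R1, and by group means it was 666-fold. The 95% counting interval of the pooled ratio was 367 to 1524 (exact binomial). That interval covers counting error only, not the spread between libraries or the choice of the gene by its R1 values. R2 was 283-fold above R1 from pooled reads (149 to 620, with the same limits) and 264-fold by group means. The log2 fold change of R1 against control was -6.48, the second lowest of all 12931 genes, which is how the gene was chosen. In bulk RNA, fewer cells that express a gene and less RNA per cell cannot be told apart.

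Markers of cell types rich in caveolae were looked up as well, since nothing in the labels says that mouse reads were set aside. Of 7 adipocyte markers and 9 muscle markers, 0 were measured. Of 9 fibroblast and pericyte markers, 5 were measured, with a summed value of 84.7 to 155 in R1, 100.1 to 331 in R2 and 233 to 327 in control. Most of that sum was COL1A1, a collagen chain (271 ± 47.2 in control, 105 ± 34.5 in R1 and 216 ± 102 in R2), while DCN, PDGFRA, COL1A2 and COL3A1 were not measured. COL1A1 fell in R1 (-1.41, adjusted p = 0.0027). The sum, which was not tested, had its lowest mean there (119 against 286 in control). The other listed markers did not pass in R1, with PDGFRB at 5.05 against 4.03 in control, LUM at 5.96 against 6.66, RGS5 at 2.55 against 3.66 and NOTCH3 at 0.8289 against 0.899 (adjusted p between 0.178 and 0.653). In R2 LUM (2.02) and PDGFRB (0.331) fell (adjusted p = 0.0017 and 0.0003), and COL1A1 did not pass (adjusted p = 0.311). NOTCH3 (0.039, adjusted p = 0.0662) and RGS5 did not pass in R2 either. RGS5 had the opposite direction there, at 6.13 against 3.66 in control (0.58, adjusted p = 0.236). The part of these cells in the SDPR values was not tested.

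**Figure D1:**
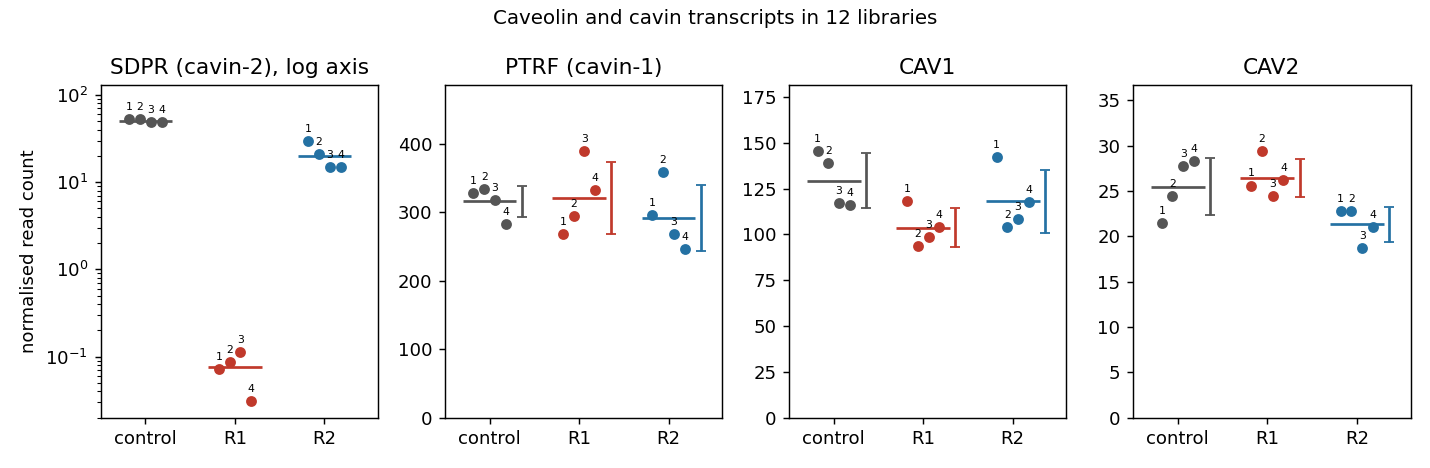
Normalised read counts of SDPR (log axis), PTRF, CAV1 and CAV2 (linear axes from 0) in control, R1 and R2. Points are libraries with their replicate number, horizontal lines are group means and bars in the linear panels are SD (n = 4). SDPR lies between 48.5 and 52.8 in control, 15.0 and 29.7 in R2 and 0.0309 and 0.114 in R1, whereas the groups of PTRF overlap.

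PTRF, the cavin on which the other cavins depend, was abundant in every library. It was at 328, 334, 318 and 283 in control, at 268, 294, 388 and 332 in R1, and at 296, 358, 267 and 246 in R2. All 3 groups overlapped, and the R1 libraries with the highest PTRF (replicates 3 and 4) had 3 and 1 SDPR reads. PTRF did not pass the test in R1 (320.7 ± 52.1 against 316 ± 23.1, log2 fold change 0.01, 95% interval -0.28 to 0.30, adjusted p = 0.951) or in R2 (292 ± 48.5, log2 fold change -0.12, -0.41 to 0.16, adjusted p = 0.528). The direction in R1 turned without R1 replicate 3 (-0.08) or 4 (-0.01) or control replicate 4 (-0.04). R2 against R1 did not pass either (-0.14, -0.43 to 0.15, adjusted p = 0.429).

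CAV1, the main structural protein of caveolae, was at 145, 139, 117 and 116 in control. It was at 118, 93.7, 98.6 and 104 in R1 and at 142, 104, 108 and 118 in R2. Every R1 library but replicate 1 lay under all control libraries, and R2 spanned nearly the whole control range. CAV1 fell in R1 to 80.1% of the control mean (104 ± 10.7 against 129 ± 15.0, log2 fold change -0.32, SE 0.12, adjusted p = 0.0467). It was the only one of the 3 members tested in R1 against control that passed, where 43.8% of all genes passed (22.4% rose and 21.4% fell). This call ended on leaving out replicate 2, 3 or 4 of R1, 3 or 4 of R2, or 1 or 2 of control (log2 fold changes of -0.32 to -0.26, adjusted p between 0.0554 and 0.132). In R2 it did not pass (118 ± 17.1, -0.13, 95% interval -0.39 to 0.12, adjusted p = 0.44).

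CAV2, which needs CAV1 to reach the cell surface, was at 21.5, 24.4, 27.7 and 28.3 in control. It was at 25.6, 29.4, 24.4 and 26.2 in R1 and at 22.8, 22.8, 18.7 and 21.0 in R2. Control and R1 overlapped, and each R2 library was under each R1 library. CAV2 did not pass in R1 against control (0.06, 95% interval -0.19 to 0.31, adjusted p = 0.72, direction turned without control replicate 1, -0.02) or in R2 against control (-0.25, -0.50 to 0.00395, adjusted p = 0.132). It was lower in R2 than in R1 (21.3 ± 1.93 against 26.4 ± 2.10, -0.30, SE 0.12, adjusted p = 0.0463), a comparison in which 46.8% of all genes passed (22.8% higher and 24.0% lower). That call ended on leaving out replicate 1, 2 or 4 of R1, 1, 3 or 4 of R2, or 2, 3 or 4 of control (log2 fold changes of -0.33 to -0.24, adjusted p between 0.0514 and 0.137). It was lost as well with R1 and R2 alone in the fit (adjusted p = 0.0652) and with a replicate block (adjusted p = 0.058). By mean level CAV1 ran control, R2, R1 from high to low and CAV2 ran R1, control, R2. Neighbours in these orders did not pass the test in either gene.

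The balance between members was compared within libraries, where the scaling of a library cancels. R1 libraries had a log2 ratio of CAV2 to CAV1 of -1.95 ± 0.22, R2 libraries of -2.44 ± 0.19 and control libraries of -2.32 ± 0.34. It was 0.37 higher in R1 than in control (exact permutation test, two-sided, p = 0.143) and 0.48 higher in R1 than in R2 (R2 minus R1 -0.48, exact permutation p = 0.0571, adjusted p = 0.286 over 6 comparisons). For PTRF to CAV1 the log2 ratios were 1.62 ± 0.33 for R1, 1.30 ± 0.34 for R2 and 1.29 ± 0.11 for control (R1 minus control 0.33, exact permutation p = 0.114). None of the 6 comparisons passed, and an exact permutation test of 4 against 4 libraries cannot go below p = 0.0286. After adjustment over 6 comparisons, a single one at that lowest p would not have passed either. That none passed therefore says little about the balance between members. The ranges of both ratios overlapped between every pair of groups.

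Per kb of transcript (longest principal transcript in GENCODE v29), PTRF was the most abundant member in control, at 82.5 ± 6.03, followed by CAV1 at 47.8 ± 5.56. SDPR (15.7 ± 0.69) and CAV2 (7.72 ± 0.96) came after. PTRF and CAV1 did not overlap in any group, nor did SDPR and CAV2 in control. In R2 SDPR was at 6.24 ± 2.15 per kb and CAV2 at 6.46 ± 0.58, with overlapping ranges. In R1 SDPR was at 0.0236 per kb and CAV2 at 8.0 ± 0.64.

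Among the cavins the loss shows as a change of make-up. SDPR held 14.4% ± 0.54 of the summed cavin level per kb in control, 6.53% ± 1.79 in R2 and 0.0236% ± 0.00986 in R1. PTRF held 75.4% ± 0.92 in control, 83.0% ± 3.95 in R1 and 80.3% ± 2.10 in R2. PRKCDBP (CAVIN3, cavin-3, a binder of protein kinase C delta) held 9.71% ± 0.83, 16.6% ± 4.13 and 12.9% ± 0.82. MURC (CAVIN4, cavin-4) held 0.416%, 0.385% and 0.276% in the same order. These are shares, so a lower share of SDPR raises the summed share of the other cavins, though not of each one.

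**Figure D2:**
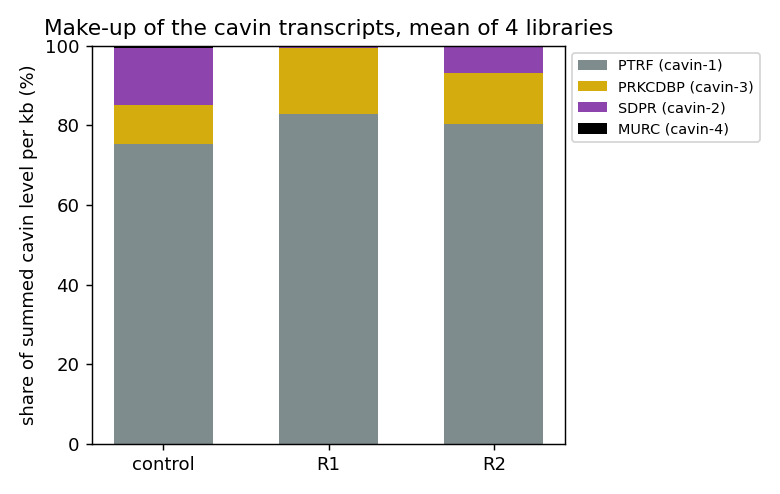
Mean share (%) of each cavin in the summed cavin level per kb of transcript, in 4 libraries per group. SDPR is 14.4% of the bar in control, 6.53% in R2 and too thin to see in R1 (0.0236%), and MURC is under 1% in each group.

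The bases before the start of SDPR, CAV1 and CAV2 are shown so that the member chosen for its loss can be set beside the caveolin genes. The RefSeq promoter table (GRCh38.p14) matched 3 of the 4 members. For each, the 250 bases before its first RefSeq start are given 5′ to 3′ on the gene's strand, with CG dinucleotides in capitals. GENCODE v29 has other starts, at 191847255 for SDPR, 116524785 for CAV1 and 116287380 for CAV2. By those starts, part of the SDPR and CAV1 stretches and all of the CAV2 stretch lie inside the gene. What follows therefore holds for the RefSeq starts only.
SDPR, minus strand, chr2:191847089-191847338: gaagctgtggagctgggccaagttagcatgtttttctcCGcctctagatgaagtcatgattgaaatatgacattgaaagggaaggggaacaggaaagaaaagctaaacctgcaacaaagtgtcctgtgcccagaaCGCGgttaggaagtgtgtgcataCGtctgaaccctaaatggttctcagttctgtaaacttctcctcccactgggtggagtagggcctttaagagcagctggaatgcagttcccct
CAV1, plus strand, chr7:116524759-116525008: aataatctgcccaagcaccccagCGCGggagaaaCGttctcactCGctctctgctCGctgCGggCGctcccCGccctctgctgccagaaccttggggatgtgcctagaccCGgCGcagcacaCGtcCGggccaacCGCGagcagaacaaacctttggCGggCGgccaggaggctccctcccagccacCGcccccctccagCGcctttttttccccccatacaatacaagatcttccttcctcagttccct
CAV2, plus strand, chr7:116499488-116499737: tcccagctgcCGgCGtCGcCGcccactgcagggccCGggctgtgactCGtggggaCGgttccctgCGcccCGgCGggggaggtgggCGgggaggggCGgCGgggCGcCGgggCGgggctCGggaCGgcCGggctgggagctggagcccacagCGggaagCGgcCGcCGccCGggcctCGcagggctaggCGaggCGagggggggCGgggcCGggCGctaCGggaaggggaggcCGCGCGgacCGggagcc
The SDPR stretch holds 4 CG dinucleotides and 48% G or C, the CAV1 stretch 18 and 63.6%, and the CAV2 stretch 35 and 83.2%. Over 27326 such stretches the median is 10 CG dinucleotides and 57.6% G or C, and 30.1% of them hold fewer than SDPR, 63.7% fewer than CAV1 and 94.3% fewer than CAV2. The GC box letters GGGCGG, on both strands, were found 3 times before CAV1, 6 times before CAV2 and 0 times before SDPR, and in 42.2% of all stretches. These are descriptions of letters, not of sites in use.

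SDPR lies on chromosome 2 at 191834310 to 191847088 on the minus strand (RefSeq, GRCh38.p14, as for the other positions). The antisense gene CAVIN2-AS1 (191846488 to 192063829) overlaps its first bases and runs into TMEFF2, a transmembrane protein gene 102 kb from SDPR. The library kit does not mark strand, so that reads from SDPR and from an overlapping antisense RNA cannot be told apart. Within 1 Mb of SDPR, 5 genes were measured. In R1 2 rose and 1 fell (of all genes, 22.4% rose and 21.4% fell), and in R2 3 rose and 1 fell (13.6% and 14.8%).

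The neighbour that fell in both was TMEFF2, named after its values were seen. It was at 4.89, 4.21, 6.56 and 5.25 in control, 1.21, 1.45, 1.21 and 1.30 in R1, and 3.05, 2.79, 1.5 and 1.38 in R2. Neither combination group overlapped control (R1 -1.66, adjusted p = 3.1e-05, and R2 -1.14, adjusted p = 0.0012). Like SDPR, TMEFF2 was higher in R2 replicates 1 and 2 than in 3 and 4. On the other side of SDPR, NABP1, which codes for a single-stranded DNA binding protein, was higher in both (0.71 and 0.66).

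CAV2 (chromosome 7, 116499738 to 116508541) and CAV1 (116525009 to 116561185) lie 16.5 kb apart on 1 strand. Of the 6 other genes measured within 1 Mb of CAV1, 2 rose and 1 fell in R1 and 1 rose and 0 fell in R2. PTRF lies on chromosome 17 at 42402449 to 42423256, among 47 measured genes within 1 Mb. Of these, 16 rose and 4 fell in R1 and 5 rose and 4 fell in R2. The shares of all genes were 22.4% risen and 21.4% fallen in R1, and 13.6% and 14.8% in R2.

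The 3 genes most like each member were found by Pearson's r over the 12 libraries among 10869 other genes whose highest group mean reached 5. These values share libraries and groups, so they are a description. For SDPR they were CDK15, a cyclin-dependent kinase relative (r = 0.989), GATA3, a transcription factor (0.989), and DGKQ, a diacylglycerol kinase (0.985). CDK15 was at 27.7 ± 3.68 in control, 22.4 ± 4.17 in R2 and 5.37 ± 0.65 in R1. DGKQ was at 10.5 ± 0.98 in control, 8.73 ± 1.09 in R2 and 0.0374 in R1. CAV1 had r = 0.668 with SDPR, PTRF -0.10 and CAV2 -0.33.

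For PTRF the most alike were MID1IP1, a regulator of lipid synthesis (0.919), EFNA4, an ephrin ligand (0.899), and SZRD1 (0.893). For CAV1 they were METAP1D, a mitochondrial methionine aminopeptidase (0.902), NDOR1, a flavin reductase (0.896), and KLHL42, an adaptor of a ubiquitin ligase (0.892). For CAV2 they were CA9, a carbonic anhydrase known as a hypoxia marker (0.921), INAFM2 (0.913) and B2M, the light chain of MHC class I (0.908). B2M was at 572 ± 67.6 in control, 576 ± 52.8 in R1 and 379 ± 48.1 in R2. No member was among the 3 most alike of another, and CAV1 and CAV2 had r = -0.31.

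The rest of the coat was looked up from a list of other caveolar genes by role. Of 3 other coat genes, PRKCDBP and MURC were measured and CAV3, the muscle caveolin, was not. PRKCDBP was at 13.4, 13.1, 32.9 and 23.1 in R1, 15.6, 18.3, 13.1 and 10.7 in R2, and 12.5, 11.7, 13.7 and 11.9 in control. R1 replicates 3 and 4, which had the most PTRF in R1, were also its highest in PRKCDBP. It did not pass in R1 (20.6 ± 9.39 against 12.4 ± 0.91, log2 fold change 0.61, adjusted p = 0.0615) but was called higher without R1 replicate 1 (adjusted p = 0.0254) or 2 (adjusted p = 0.0179), and by edgeR (adjusted p = 0.0341) and DESeq2 (adjusted p = 0.0191). MURC (CAVIN4, the muscle cavin) was near the lower end of what was measured, at 1.19 ± 0.20 in control, 0.971 ± 0.44 in R1 and 0.664 ± 0.08 in R2. It did not pass in R2 (-0.54, adjusted p = 0.0529), but was called lower without R1 replicate 2 (adjusted p = 0.0141), by edgeR (adjusted p = 0.0488), with a pseudocount of 0.1 (adjusted p = 0.0489) and with the compared groups alone (adjusted p = 0.0173). It was called lower in R1 (-0.43, adjusted p = 0.0441) without that library.

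Proteins that shape the caveolar neck or tie it to the cytoskeleton had 9 of 11 genes measured. In R1 2 rose and 3 fell, with a median log2 fold change of 0.01 against 0.01 for all genes, and in R2 0 rose and 2 fell (median -0.01, all genes 0.03). Of all genes, 22.4% rose and 21.4% fell in R1 and 13.6% and 14.8% in R2. EHD2, the ATPase that holds caveolae at the surface, fell in both groups. It was at 171, 192, 304 and 285 in control, 97.1, 148, 86.0 and 80.6 in R1, and 113, 188, 79.9 and 79.5 in R2. R1 lay under control without overlap (-1.20, SE 0.27, adjusted p = 0.0027), while R2 replicate 2 reached into the control range (-1.10, adjusted p = 0.0081). The 2 combination groups did not differ in EHD2 by the test (0.11, adjusted p = 0.771).

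The relatives of EHD2 took other courses. EHD1, which acts in recycling endosomes, was at 180, 125, 214 and 171 in R1 against 50.8 to 76.8 in control and 69.8 to 85.7 in R2. It rose in R1 (1.45, SE 0.16, adjusted p = 9.5e-06), did not pass in R2 (0.31, adjusted p = 0.175), and differed between R2 and R1 (-1.14, adjusted p = 7.4e-05). EHD4, an endosomal relative that can join EHD2 at caveolae, was at 64.1, 55.4, 50.9 and 46.4 in R2 against 101 to 122 in control and 110 to 121 in R1. It fell in R2 (-1.01, SE 0.11, adjusted p = 8.5e-06) and did not pass in R1 (0.08, adjusted p = 0.586). EHD3 did not pass against control (-0.29 in R1, adjusted p = 0.206, and 0.21 in R2, adjusted p = 0.417).

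PACSIN2, the F-BAR protein that bends the caveolar neck, fell in R1 (55.9 ± 6.54 against 71.4 ± 4.27, -0.36, adjusted p = 0.0168), a call lost without control replicate 2 (adjusted p = 0.0536). In R2 it did not pass (64.4 ± 7.54, -0.15, adjusted p = 0.325). PACSIN3, its muscle-enriched relative, fell in R1 (57.0 ± 9.49 against 79.7 ± 6.91, -0.49, adjusted p = 0.0114) and did not pass in R2 (79.8 ± 14.1, adjusted p = 0.963). FLNA, filamin A, which links CAV1 to actin, rose in R1 (2067 ± 258 against 1452 ± 135, 0.51, adjusted p = 0.0079). In R2 FLNA did not pass (1837 ± 206, 0.34, adjusted p = 0.0784), though it was called higher without R1 replicate 2 (adjusted p = 0.0452) or R2 replicate 4 (adjusted p = 0.0471) and by DESeq2 (adjusted p = 0.0366). The dynamins DNM1 and DNM2, which cut vesicles from the membrane, did not pass in either group, and DNM2 was at 208 ± 8.25 in control, 210 ± 13.4 in R1 and 209 ± 10.99 in R2.

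**Figure D3:**
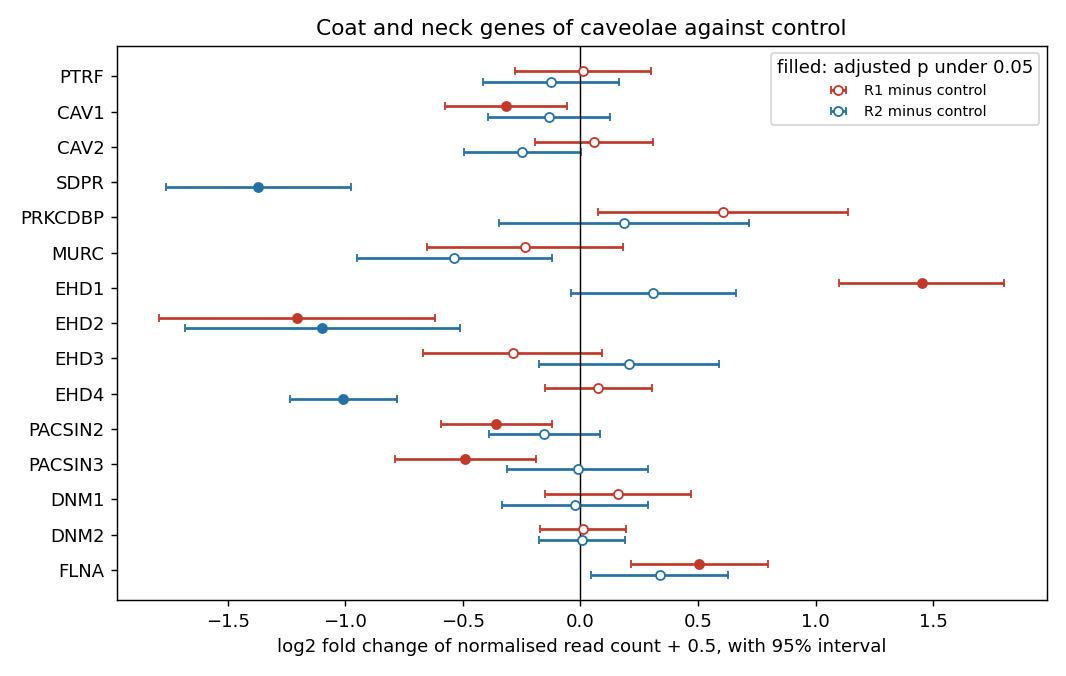
Log2 fold changes of R1 (red) and R2 (blue) against control for coat and neck genes, with 95% intervals from limma and filled points where the adjusted p was under 0.05. SDPR in R1 (-6.48, chosen for it) is not drawn. PTRF and DNM2 lie at 0.01 in R1, EHD2 lies at -1.20 and -1.10, and EHD1 at 1.45 in R1.

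Kinases and partners of the coat had 7 of 7 genes measured, with 3 risen and 2 fallen in R1 (median 0.12, all genes 22.4% and 21.4%) and 1 risen and 2 fallen in R2 (median -0.17, all genes 13.6% and 14.8%). SRC, a tyrosine kinase that phosphorylates caveolin-1, rose from 0.156 to 0.350 in control to 3.83 to 7.33 in R1 (2.91, adjusted p = 0.00071). In R2 SRC was at 0.233, 0.186, 4.99 and 3.58 and did not pass (1.28, adjusted p = 0.0972). It was called higher there by edgeR (adjusted p = 0.0176) and DESeq2 (adjusted p = 0.0045), and without R2 replicate 1 (adjusted p = 0.0297) or 2 (adjusted p = 0.0208). Its relative FYN rose in R1 (70.4 ± 11.5 against 54.4 ± 3.30, 0.36, adjusted p = 0.0187) and in R2 (71.0 ± 5.51, 0.38, adjusted p = 0.0207). The FYN calls ended without control replicate 1 (adjusted p = 0.0552 and 0.0585), and the R2 call also without control replicate 4 or R2 replicate 2 (adjusted p = 0.0525 and 0.0563). PRKCD, protein kinase C delta, rose in R1 (27.5 ± 6.14 against 9.77 ± 1.41, 1.44, adjusted p = 0.0046). In R2 it was at 2.41, 2.51, 9.27 and 9.13, with replicates 1 and 2 under all control libraries (-0.93, adjusted p = 0.0645). That was called lower without R2 replicate 3 (adjusted p = 0.0186) or 4 (adjusted p = 0.0208). PRKCA, protein kinase C alpha, which cavin-2 binds, was named after its values were seen. It fell in R1 (78.3 ± 8.33 against 108 ± 15.0, -0.46, adjusted p = 0.0059) and did not pass in R2 (118 ± 10.2, 0.13, adjusted p = 0.427).

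CSK, which restrains SRC family kinases, fell in R2 (79.1 ± 8.04 against 127 ± 10.2, -0.68, adjusted p = 0.00025) and did not pass in R1 (-0.03, adjusted p = 0.85). ABL1, a tyrosine kinase that phosphorylates caveolin-1, fell in R2 (119 ± 10.6 against 182 ± 15.4, -0.61, adjusted p = 0.00029). In R1 it fell as well (153 ± 8.13, -0.25, adjusted p = 0.049). The R1 call of ABL1 ended on leaving out replicate 1, 3 or 4 of R1, 1, 3 or 4 of R2, or 2, 3 or 4 of control (adjusted p between 0.0537 and 0.142). It ended by edgeR (adjusted p = 0.0524) and with the compared groups alone (adjusted p = 0.0675) too.

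Residents and cargo of caveolae had 11 of 16 genes measured, with 1 risen and 3 fallen in R1 (median -0.06, all genes 22.4% and 21.4%) and 1 risen and 4 fallen in R2 (median -0.18, all genes 13.6% and 14.8%). NOS3, the endothelial nitric oxide synthase that caveolin-1 binds, was at 14.1, 14.1, 23.6 and 18.0 in R1. It was at 0.320, 0.372, 0.187 and 0.321 in R2, and at 4.09, 3.08, 3.70 and 2.73 in control. No groups overlapped, with R1 above control (2.19, SE 0.18, adjusted p = 6.1e-07) and R2 below it (-2.28, adjusted p = 6.4e-07). Of 14 endothelial markers 5 were measured, with a summed value of 453 to 602 in R1, 156 to 213 in R2 and 181 to 223 in control. TIE1, an endothelial receptor, held most of the sum (394 ± 54.6 in R1, 135 ± 14.0 in R2 and 139 ± 14.6 in control). TIE1, ROBO4, EGFL7 and VWF rose in R1 and PECAM1 did not pass (adjusted p = 0.744). In R2 EGFL7 (0.00727 against 3.61) and PECAM1 (0.697 against 2.26, adjusted p = 0.0332) fell, and TIE1, ROBO4 and VWF did not pass. The part of endothelial cells in the NOS3 values was not tested. CDH5, KDR, TEK, CLDN5 and PLVAP, the protein of the caveolar diaphragm in endothelium, were not measured.

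ADCY6, an adenylyl cyclase found in caveolae, fell from 20.1 ± 4.45 in control to 0.535 ± 0.30 in R1 (-4.33, adjusted p = 5.3e-06) and 1.18 ± 1.24 in R2 (-3.97, adjusted p = 2.0e-05). TFPI, an inhibitor of tissue factor held in caveolae, fell from 46.6 ± 4.89 to 22.8 ± 3.01 in R1 (-1.02, adjusted p = 1.6e-05) and 20.4 ± 1.69 in R2 (-1.17, adjusted p = 7.7e-06). Neither gene overlapped between control and a combination group. The other residents that passed were GNAQ, a G protein alpha subunit, which fell in R1 (25.0 ± 5.62 against 36.7 ± 3.50, -0.57, adjusted p = 0.006), and a pair in R2. BMPR2, a receptor for bone morphogenetic proteins, rose in R2 (71.2 ± 5.79 against 46.6 ± 2.82, 0.61, adjusted p = 0.0085), and SCARB1, a lipoprotein receptor, fell (52.7 ± 6.37 against 72.2 ± 9.60, -0.45, adjusted p = 0.011). R2 and R1 did not differ by the test in ADCY6 (0.36, adjusted p = 0.544) or TFPI (-0.15, adjusted p = 0.328).

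Other routes into the cell were set beside caveolae. Both flotillins, scaffolds of another membrane domain, were measured, and FLOT2 fell in R1 (75.4 ± 12.3 against 114 ± 16.8, -0.59, adjusted p = 0.0228) and in R2 (75.2 ± 24.4, -0.63, adjusted p = 0.0244). The R1 call of FLOT2 was lost without R1 replicate 1 (adjusted p = 0.0704) or control replicate 3 or 4 (adjusted p = 0.0705 and 0.0521). The R2 call ended on leaving out replicate 3 or 4 of R2 or of control (adjusted p between 0.0578 and 0.0791).

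The clathrin coat and its AP-2 adaptor had 8 of 8 genes measured, with 5 risen and 1 fallen in R1 (median 0.39, all genes 22.4% and 21.4%) and 4 risen and 0 fallen in R2 (median 0.24, all genes 13.6% and 14.8%). CLTB, a clathrin light chain, was at 178, 170, 251 and 178 in R1 against 107 to 124 in control (0.73, adjusted p = 0.00033). In R2 it rose to 149 ± 15.6 (0.37, adjusted p = 0.0409), a call lost without R2 replicate 1, 3 or 4 or any control library (adjusted p of 0.054 to 0.117). AP2S1, the small AP-2 subunit, rose in R1 (271 ± 42.8 against 173 ± 9.12, 0.63, adjusted p = 0.00048). CLTC, the clathrin heavy chain, rose from 480.5 ± 33.1 in control to 672 ± 62.7 in R1 (0.48, adjusted p = 0.0022) and 618 ± 53.1 in R2 (0.36, adjusted p = 0.0201, lost without R2 replicate 2 or control replicate 2 or 3 at 0.0541 to 0.0591). AP2M1, the AP-2 subunit that reads cargo signals, rose in R1 (0.52, adjusted p = 0.0024) and R2 (0.43, adjusted p = 0.0119). CLTA, the other light chain, rose in R1 (0.31, adjusted p = 0.0285), a call that ended without R1 replicate 3 or control replicate 2, 3 or 4 (adjusted p between 0.0523 and 0.0753) or with the compared groups alone (adjusted p = 0.0598). AP2A1, the other large subunit of this kind, rose in R2 (0.32, adjusted p = 0.0169), a call that ended without R2 replicate 1 or control replicate 4 (adjusted p = 0.0521 and 0.0504). AP2A2, its relative, fell in R1 (42.2 ± 4.42 against 101 ± 5.25, -1.25, adjusted p = 1.5e-06) and did not pass in R2 (106 ± 16.3, 0.06, adjusted p = 0.753).

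Over the 39 genes of these lists that were measured, of 47, 11 rose and 10 fell in R1 and 6 rose and 9 fell in R2. Of all genes, 22.4% rose and 21.4% fell in R1, and 13.6% rose and 14.8% fell in R2. The median over the 39 genes was 0.02 in R1 and 0.01 in R2.

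**Figure D4:**
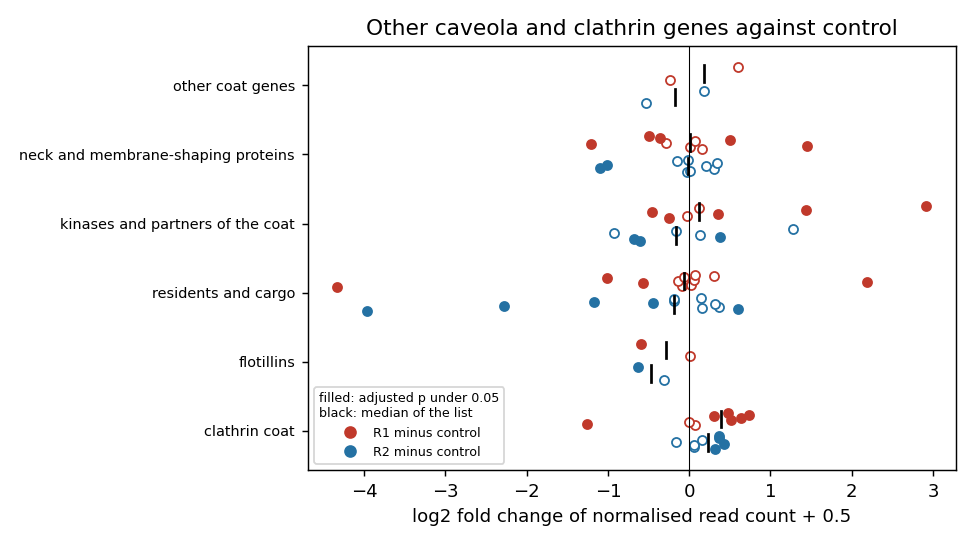
Log2 fold changes against control of the other caveola and clathrin genes by list, R1 in red and R2 in blue, filled where the adjusted p was under 0.05, with the list median in black. ADCY6 lies at -4.33 and -3.97, and NOS3 at 2.19 in R1 and -2.28 in R2, while list medians lie between -0.47 and 0.39.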

How the data were processed

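RNA sequencing libraries of 3 groups were compared. Per the submitters' processing notes, STAR, edgeR and GRCh38 were used, with versions and annotation not given in the sources used here. The authors deposited 1 normalised signal per gene and library, read counts scaled by 1 factor per library. A single read had a value of 0.0243 in R1 replicate 1 (39009384 reads in listed genes) and 0.0525 in control replicate 4 (20003891 reads). All values (100%) were whole multiples of 1 step per library, within 0.001 reads, which gave back the reads and the depth. No further filter was applied.

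Log2(value + 0.5) of all 12931 rows was fitted with limma 3.58.1 (empirical Bayes, mean-variance trend, R 4.3.3) in 1 model with 3 group means, with Benjamini-Hochberg adjustment over all rows. Alternatives were edgeR 4.0.16 and DESeq2 1.42.0 on recovered reads, TMM scaling, other pseudocounts (0.1, 1), a mean of at least 1, the compared groups alone, a replicate block, and each library left out. Calls of edgeR or DESeq2 are given where they change a result of a coat gene.

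The members and lists were chosen with earlier results of these data known. Genes named are the members, other coat and neck genes, up to 3 called genes with the smallest p per list, and the 3 most alike per member. PRKCA, SRC, FYN, GNAQ, BMPR2, SCARB1, CLTA, CLTC, AP2A1, AP2M1, TMEFF2 and NABP1 were named after their values were seen. Of 12931 rows, 12277 had a position in GENCODE v29.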

Additional observations from a re-analysis of the deposited data

Results flagged for a closer look

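Of 117 sets of 4 libraries checked for a library far from the others, 6 had one, where chance gives about 1 in 20. MURC was at 1.62 in R1 replicate 2, while its other R1 values lay between 0.711 and 0.797. TFPI in R1 replicate 3 was at 18.4, against 24.0 to 24.9. CLTB in R1 replicate 3 was at 251, against 170 to 178. FYN in R1 replicate 2 was at 87.4, against 62.4 to 66.0. CLTA in R1 replicate 3 was at 147.7, against 104.5 to 111. AP2A1 in R2 replicate 4 was at 194, against 231 to 238.

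The effects of R1 and R2 against control differed by limma's test of R2 against R1 in the 18 genes below, among the members and the list and neighbour genes named in the report. Of all genes, 46.8% passed this test (22.8% higher and 24.0% lower). Over the 39 measured list genes, named or not, 8 were higher and 11 lower in R2 than in R1. Some of the 18 were named after their values were seen. Genes named only for their likeness to a member or as cell type markers were not looked at here. Lower in R2 were CAV2 (-0.30, adjusted p = 0.0463), EHD1 (-1.14, adjusted p = 7.4e-05), EHD4 (-1.08, adjusted p = 2.8e-06), PRKCD (-2.36, adjusted p = 0.00011) and CSK (-0.65, adjusted p = 0.00019). ABL1 (-0.36, adjusted p = 0.0069), NOS3 (-4.46, adjusted p = 3.4e-10), AP2S1 (-0.80, adjusted p = 6.6e-05), CLTB (-0.37, adjusted p = 0.0269) and SRC (-1.64, adjusted p = 0.0244) were lower as well, as was SCARB1 (-0.50, adjusted p = 0.0031). Higher in R2 were EHD3 (0.49, adjusted p = 0.0339), PACSIN3 (0.48, adjusted p = 0.0122), AP2A2 (1.31, adjusted p = 1.1e-06) and PRKCA (0.59, adjusted p = 0.00098). So were BMPR2 (0.69, adjusted p = 0.0021), GNAQ (0.93, adjusted p = 0.00016) and AP2A1 (0.25, adjusted p = 0.0345). The AP2A1 call was lost without R1 replicate 2 or 4 or R2 replicate 1, 2 or 3 (adjusted p of 0.0536 to 0.0889). The SRC call was lost without R1 replicate 2 (adjusted p = 0.0547) or R2 replicate 1 or 2 (adjusted p = 0.082 and 0.0768). It was lost as well by edgeR (-1.24, adjusted p = 0.148), by DESeq2 (-1.25, adjusted p = 0.233) and with the compared groups alone (adjusted p = 0.0549). The EHD3 call was lost without R1 replicate 1, 3 or 4 or R2 replicate 1 or 2 (adjusted p of 0.0704 to 0.103), and the CLTB call without R1 replicate 3 or R2 replicate 2 or 4 (adjusted p of 0.0513 to 0.0779). With the compared groups alone, the calls of EHD3 (adjusted p = 0.0666), CLTB (adjusted p = 0.0601) and AP2A1 (adjusted p = 0.0769) were lost as well.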

How the results depend on the processing

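The fall of SDPR in R2 kept its direction and call under all 20 alternatives (-1.57 to -1.25). Several of these cannot move its log2 fold change of -1.37, only its p-value. They are leaving out an R1 library, the filter on the mean, the compared groups alone and the replicate block. TMM scaling gave -1.37 as well. Its log2 fold change in R1 depends on the pseudocount, being -8.19 with 0.1 and -5.59 with 1, and was -9.34 by edgeR and -9.45 by DESeq2, while R2 minus R1 was 6.81, 4.24, 8.01 and 8.10 in the same order. CAV1 in R1 ranged from -0.38 to -0.26 with 1 library left out, and CAV2 in R2 minus R1 from -0.34 to -0.24. CAV2 in R2 minus R1 was -0.30 (adjusted p = 0.0652) with the compared groups alone and -0.30 (adjusted p = 0.058) with a replicate block. Replicate numbers did not pair the libraries, as 5 of 12 same-numbered pairs had a correlation of deviations over 0.1 and 3 of 12 libraries correlated best with their own number. The block ended 1 other call, ABL1 in R1 (adjusted p = 0.0663). With 1 library left out, values that had not passed and changed sign were PTRF in R1 (-0.0848 to 0.0928), CAV2 in R1 (-0.0214 to 0.11) and the log2 PTRF to CAV1 ratio in R2 (-0.15 to 0.091). In R2 minus R1 they were FYN (-0.02997 to 0.13), EHD2 (-0.16 to 0.30), DNM2 (-0.0393 to 0.0229), ADCY6 (-0.0105 to 0.73) and FLOT2 (-0.23 to 0.0825). In R2 minus control they were PACSIN3 (-0.10 to 0.10), DNM1 (-0.14 to 0.0662), DNM2 (-0.0249 to 0.0346) and AP2A2 (-0.0315 to 0.14), and in R1 minus control BMPR2 (-0.23 to 0.0774), DNM2 (-0.0157 to 0.0455) and CSK (-0.0907 to 0.0134). By edgeR PACSIN3 in R2 minus control was 0.00206, and by DESeq2 DNM2 was -0.00671 in R1 and -0.00999 in R2, and FLOT2 in R2 minus R1 was 0.00091. The cause of these changes was not tested. In R1 SDPR rests on 9 reads, so that counting error limits how closely its level there is known.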

Other observations

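Within R2, several genes named here differed between replicates 1 and 2 and replicates 3 and 4. SDPR was higher in the former, at 29.7 and 20.9 against 15.0 and 15.0. Among the genes that ran the same way were TMEFF2 (3.05 and 2.79 against 1.5 and 1.38) and EHD2 (113 and 188 against 79.9 and 79.5). FLOT2 did so too (81.7 and 107 against 56.5 and 55.6), while SRC, ADCY6 and PRKCD ran the opposite way. SRC, the kinase that phosphorylates caveolin-1, was at 0.233, 0.186, 4.99 and 3.58 in R2 replicates 1 to 4, against 0.156 to 0.350 in control and 3.83 to 7.33 in R1. ADCY6 was at 0.116, 0.0931, 2.22 and 2.29 in R2, and PRKCD at 2.41, 2.51, 9.27 and 9.13. These genes were picked after their values were seen, and the labels give no reason to split R2.

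Within control, CAV1 was higher in replicates 1 and 2 (145 and 139) than in 3 and 4 (117 and 116), and CAV2 was lower there (21.5 and 24.4 against 27.7 and 28.3). CA9 was at 0.601 and 5.88 in control replicates 1 and 2 and at 82.9 and 63.5 in 3 and 4. R1 replicate 2 had the lowest CAV1 (93.7), the highest CAV2 (29.4) and the highest CA9 (127) of R1, and CA9 in the rest of R1 lay between 10.5 and 20.7. In R2 CA9 was at 0.780 to 7.35. CA9 was named as the gene most like CAV2 over these same libraries. Its course beside CAV2 is therefore how it was picked, not a separate observation.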
